A study of Mus musculus with 22 samples.

Results

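Oct4 (encoded by Pou5f1) chromatin immunoprecipitation sequencing (ChIP-seq) peaks in the mouse aorta were not spread evenly over the autosomes. In 19 windows of 1 Mb, 20 or more peak summits of one list lay together, and these windows are described here as the dense bins. A bin was taken when the floor of the summit position divided by 1000000 was shared by at least 20 summits of the wild-type (WT) or of the knockout (KO) list on chromosomes 1 to 19. The 19 bins made up 0.787% of the 2413 autosomal bins with sequence, lay on 11 chromosomes, and held 2014 of the 12934 peaks of both lists, 1048 of 5455 WT peaks and 966 of 7479 KO peaks. The bins were chosen by their summit counts in these same lists, so those counts are a description and nothing is read from them.

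The WT list came from SMC Oct4-WT/WT mice and the KO list from SMC Oct4-Δ/Δ mice (Oct4-KO/KO in the sample titles), in which the gene is removed from smooth muscle cells (SMC). Both groups were apoE-deficient C57BL/6 males carrying a tamoxifen-inducible Cre recombinase driven by the SMC gene Myh11, and both were fed a Western diet for 18 weeks. Aortic segments of 15 mice per genotype gave 1 ChIP sample each. The recombination was limited to SMC while the chromatin came from a mixture of smooth muscle, immune and other cells, so Oct4 remained intact in the other cells of the KO sample, and a loss in SMC cannot be told apart from a shift in cell types. Neither list held a peak within 50 kb of Pou5f1, so the peaks themselves give no check of the deletion. With 1 sample per genotype no difference between genotypes has a replicate check. Intervals below are exact 95% binomial (Clopper-Pearson) intervals and cover counting error within these samples only.

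Oct4 is a POU-family transcription factor of pluripotent cells that binds an octamer, ATGCAAAT, and its close variants. In ChIP-seq, the number of sequenced fragments over a site (the pileup) is compared with the number expected from background. Multicopy gene families, tandem arrays and satellite DNA can disturb that comparison in general: a read that fits several copies may be placed on any of them, and an assembly may hold fewer copies than the animal. The satellite next to mouse centromeres is the best known example, and the runs of undetermined bases in the assembly often stand beside such DNA.

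The dense bins held multicopy gene families in part. A gene family was counted as 3 or more protein-coding genes with 1 symbol stem in a bin. Predicted genes and clone names (such as Gm and Rik symbols) were left out, so a family made of them was not counted. By this rule a family was present in 8 of the 19 bins and in 343 of all 2413 autosomal bins (14.2%). The 11 dense bins without one can still hold multicopy genes. Predicted genes were 5 of 8 coding genes at chr5:15000001-16000000 and 5 of 6 at chr8:20000001-21000000. Of 44 families looked for by name, 7 had a protein-coding gene in a dense bin and 4 had a summit inside a gene. The genes of these families held 41 WT and 32 KO summits, which together were 3.62% of the peaks in the dense bins. The same share was not computed for peaks elsewhere, so it is not read as high or low. Only coding genes with a family name were counted. Summits in non-coding transcripts of the same regions, such as Gm21847 (22 WT and 60 KO) and Gm26804 (50 and 33), were not. More of the bins shared a feature of the assembly: 14 of 19 held or touched a run of at least 50 kb of undetermined bases, against 104 of 2413 autosomal bins (4.31%). The bins that begin at 3 Mb on chromosomes 4, 11, 16 and 17 are the first assembled sequence at the centromere end of those chromosomes and held 717 of the 2014 peaks (35.6%).

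The sequence under the peaks shows what several bins have in common. The 4 windows below are the 121 bases around a strong summit in 4 bins on different chromosomes, read from GRCm38.p6 on the plus strand. Capitals mark the word AGCACTGTGACA, on either strand.
chr7:64073949-64074069: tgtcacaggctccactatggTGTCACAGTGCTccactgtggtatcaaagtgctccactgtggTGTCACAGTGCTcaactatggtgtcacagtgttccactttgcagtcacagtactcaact
chr17:3020518-3020638: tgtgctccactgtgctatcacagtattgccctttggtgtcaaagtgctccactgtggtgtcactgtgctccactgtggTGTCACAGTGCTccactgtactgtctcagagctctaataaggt
chr4:3064401-3064521: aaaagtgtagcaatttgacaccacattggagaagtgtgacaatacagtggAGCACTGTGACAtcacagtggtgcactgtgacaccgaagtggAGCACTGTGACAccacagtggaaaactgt
chr16:3233493-3233613: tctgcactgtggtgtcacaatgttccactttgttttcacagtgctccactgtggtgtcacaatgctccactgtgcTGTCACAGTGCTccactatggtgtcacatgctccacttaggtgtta
The windows matched themselves best at shifts of 21, 42, 84 and 21 bp, in the order printed, with 67.2%, 73.0%, 77.8% and 71.1% identity, and each of these shifts is a multiple of 21. The word was searched on both strands within 100 bp of every summit (201 bp). It was present in 71 of 87 peaks of the bin at the start of chromosome 4, in 35 of 43 peaks of chr7:64000001-65000000, in 96 of 127 peaks at the start of chromosome 17 and in 31 of 93 peaks at the start of chromosome 16, and in no peak of the other 15 dense bins. Among 7668 autosomal peaks outside the dense bins 36 held it (0.469%), and of 11919593 windows of 201 bp along the autosomes 1212 held it (0.0102%). The word was picked after the sequences had been seen. It is the 12-base word that the most peaks at the start of chromosome 4 held. Its high counts in the 4 bins therefore follow in part from that choice.

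A second kind of repeat carried the highest peaks at the starts of chromosomes 4 and 11. Capitals in the next windows mark GGAATATGG, a word of the mouse major satellite, on either strand of GRCm38.p6 plus-strand sequence.
chr4:3090069-3090189: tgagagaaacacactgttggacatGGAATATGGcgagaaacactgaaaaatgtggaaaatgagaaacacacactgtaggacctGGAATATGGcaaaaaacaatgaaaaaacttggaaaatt
chr11:3100415-3100535: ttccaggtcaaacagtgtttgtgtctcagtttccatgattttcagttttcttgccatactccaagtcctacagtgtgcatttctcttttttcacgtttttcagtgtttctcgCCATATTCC
The first lay under the highest WT peak of the bin on chromosome 4 (fold enrichment 36.3 in WT and 32.2 in KO) and the second under the highest peak of the bin on chromosome 11 (34.3 in WT and 35.6 in KO). Within 100 bp of the summit the word stood in 5 peaks of the first bin and in 16 of the second, and every one of these was shared between genotypes. It also stood in 1 WT peak of chr4:146000001-147000000, 1 KO peak of chr4:147000001-148000000 and 2 KO peaks of chr5:15000001-16000000. These had folds of 4.10 to 5.47 and none was shared. The word is short and less particular than the first: 40 of 7668 other autosomal peaks (0.522%) and 0.186% of all windows held it.

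Further windows show a 31-base tandem unit inside an intron of Tmem267 on chromosome 13 (capitals mark GAGGCAGGGGGA), a repeat of a 51-base unit on chromosome 8 (capitals mark AGCACAGGTGGA) and a coding exon of the zinc finger gene Zfp600 on chromosome 4 (capitals mark AATTCTCTGATG), each on either strand and printed from the plus strand of GRCm38.p6. They were chosen after their values had been seen. Each word was a 12-base word that the most peaks of its own bin held, so its share there follows in part from that choice.
chr13:119599016-119599136: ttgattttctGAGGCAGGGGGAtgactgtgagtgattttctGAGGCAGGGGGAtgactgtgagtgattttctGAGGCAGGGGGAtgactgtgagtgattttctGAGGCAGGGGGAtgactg
chr8:20678512-20678632: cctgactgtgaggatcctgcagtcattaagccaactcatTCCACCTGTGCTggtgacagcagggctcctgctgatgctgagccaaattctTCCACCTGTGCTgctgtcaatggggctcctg
chr4:146195633-146195753: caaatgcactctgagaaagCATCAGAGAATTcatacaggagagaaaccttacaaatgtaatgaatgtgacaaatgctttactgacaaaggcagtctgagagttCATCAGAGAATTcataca
The first word was found in 39 of 48 peaks of its bin (81.2%) and in 0.0476% of autosomal windows. The second was found in 60 of 270 peaks of chr8:20000001-21000000 and in 4 of the 47 peaks of the neighbouring bin, with 0.00682% of autosomal windows as background. The third was found in few peaks, 5 of 47 in chr4:146000001-147000000 (10.6%) and 2 of 109 in chr4:147000001-148000000 (1.83%). It stood in 2 of 7668 other autosomal peaks and in 0.00767% of autosomal windows. The exon window matched itself best at a shift of 84 bp (91.5% identity), the repeat length of coding sequence for zinc fingers of this type.

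Other bins repeat at the scale of kilobases. Peaks lay on near-identical copies of 1 sequence, shown by the following plus-strand windows of GRCm38.p6 from chromosomes 6 and 8. Capitals in the third mark bases that differ from the second.
chr6:47652819-47652939: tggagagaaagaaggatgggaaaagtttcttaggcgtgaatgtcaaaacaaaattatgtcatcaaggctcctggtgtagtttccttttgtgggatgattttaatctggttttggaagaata
chr8:55117871-55117991: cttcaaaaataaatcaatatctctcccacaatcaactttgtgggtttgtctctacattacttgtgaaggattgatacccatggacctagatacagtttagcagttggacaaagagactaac
chr8:55368040-55368160: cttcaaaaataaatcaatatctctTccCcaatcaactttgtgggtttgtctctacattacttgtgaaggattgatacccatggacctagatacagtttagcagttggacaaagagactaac
The window on chromosome 6 belonged to a group of 74 peaks linked by shared sequence, 46 WT and 28 KO, and the 11 distinct windows of the peaks linked to it were identical to it in all 121 bases. Peaks of the bin on chromosome 8 were linked in a group of 14 (8 WT and 6 KO), and the 7 distinct windows compared with the second sequence differed from it by at most 2 bases. On chromosomes 5 and 16 some copies were inverted. Of the next 3 windows, the second is printed from the minus strand, with capitals at the bases that differ from the first, and the third has an identical copy on the minus strand at chr16:3349886-3350006, 233 kb away.
chr5:15633539-15633659: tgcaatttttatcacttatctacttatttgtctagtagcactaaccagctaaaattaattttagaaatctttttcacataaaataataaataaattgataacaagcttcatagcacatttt
chr5:15516953-15517073: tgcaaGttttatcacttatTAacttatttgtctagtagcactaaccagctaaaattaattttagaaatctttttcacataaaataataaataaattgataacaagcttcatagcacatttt
chr16:3116566-3116686: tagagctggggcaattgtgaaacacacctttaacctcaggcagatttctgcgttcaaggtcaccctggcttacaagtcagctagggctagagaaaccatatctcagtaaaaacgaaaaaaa
The peaks on the chromosome 16 window had a fold enrichment of 30.2 in WT and 25.3 in KO and overlapped, and the peaks on its inverted copy had 19.9 in WT and 17.8 in KO.

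A count of tandem repeats over all peaks set these examples in proportion. A summit window of 201 bp was called tandem when it matched itself, shifted by 2 to 100 bp, at 70% or more of its bases. That held for 94 WT (8.97%, 7.31 to 10.9) and 107 KO peaks (11.1%, 9.17 to 13.2) in the dense bins, for 8.06% of WT and 4.85% of KO peaks elsewhere on the autosomes, and for 0.711% of autosomal windows. The tandem windows were concentrated in 5 bins: 27 of 43 peaks in the bin of chromosome 7, 67 of 127 at the start of chromosome 17, 24 of 48 in the bin of chromosome 13, 35 of 87 at the start of chromosome 4 and 21 of 93 at the start of chromosome 16. Longer repeats were measured by the share of 31-base words that occur more than once. The median dense bin had 15.1% of its words repeated inside the bin and 35.2% repeated anywhere in the assembly, against 5.17% and 12.8% for the other autosomal bins. The median peak of the dense bins occurred in 3 copies in either list and the median peak elsewhere in 1. A peak was called single-copy when its 31-base words had a median of 1 copy in the assembly. Such peaks were 22.8% of WT and 24.2% of KO peaks in the dense bins, and 74.0% and 80.4% elsewhere.

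The octamer was no more frequent here than along the genome. ATGCAAAT, on either strand within 100 bp of the summit, stood in 10 WT peaks (0.954%, 0.458 to 1.75) and 9 KO peaks (0.932%, 0.427 to 1.76) of the dense bins. Elsewhere on the autosomes 2.64% of WT and 2.80% of KO peaks held it, with 1.71% of all autosomal windows as background. Windows of the same size beside the dense-bin peaks held it in 1.29% (WT) and 0.880% (KO). A match is one of letters alone. Of the 10 and 9 matches, 7 lay in the chromosome 8 bin chr8:20000001-21000000, 3 each in the Sfi1 bin, the Duxf3 bin and chr5:15000001-16000000, 2 in chr5:14000001-15000000 and 1 at the start of chromosome 16.

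The counts that the rule used are given as a description, with the share over all bins beside them. The dense bins held 27% of 3888 autosomal WT peaks and 16.7% of 5794 autosomal KO peaks. WT summits outnumbered KO summits in 12 dense bins, against 65 of the 614 autosomal bins with 5 or more summits (10.6%), and KO summits outnumbered WT summits in 7. A ratio of 2 or more towards WT was reached in 1 dense bin (20 WT and 8 KO summits at chr4:145000001-146000000, a ratio of 2.50) with 0.977% of autosomal bins as background. A ratio of 2 or more towards KO was also reached in 1 (47 and 119 summits at chr5:15000001-16000000, a ratio of 0.395), where 36.6% of autosomal bins did. Because the bins were picked on these counts, nothing is read from the difference to the other bins. The smallest members and the largest non-members differed little: just inside were chr4:145000001-146000000, chr7:64000001-65000000 with 21 and 22 summits and chr5:14000001-15000000 with 19 and 24, and just outside was bin 181 Mb of chromosome 2 with 19 in each list, followed by bin 59 Mb of chromosome 7 with 18 and 13. The threshold was met in WT by 18 bins, in KO by 16 and in both by 15.

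Fewer WT peaks had a KO counterpart in the dense bins than elsewhere. A peak was called shared when it overlapped a peak of the other list by at least 1 bp, which was the case for 67.9% of all WT and 49.8% of all KO peaks. In the dense bins 483 of 1048 WT peaks were shared (46.1%, 43.0 to 49.2), against 2278 of 2840 on the rest of the autosomes (80.2%, 78.7 to 81.7). For KO the shares were closer, at 493 of 966 (51.0%, 47.8 to 54.2) and 2282 of 4828 (47.3%, 45.8 to 48.7). The sharing of neighbouring peaks is not independent of how many summits stand in a bin, and peaks on copies of 1 sequence are not independent sites. Among single-copy peaks alone, 56.1% of WT and 58.1% of KO peaks in the dense bins were shared, and 84.2% and 45.5% elsewhere. This subset was not free of repeats. In the bins of the 21-base repeat, single-copy peaks were 92.0% (start of chromosome 4), 95.3% (chromosome 7), 34.4% (start of chromosome 16) and 74.8% (start of chromosome 17).

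**Figure D1:**
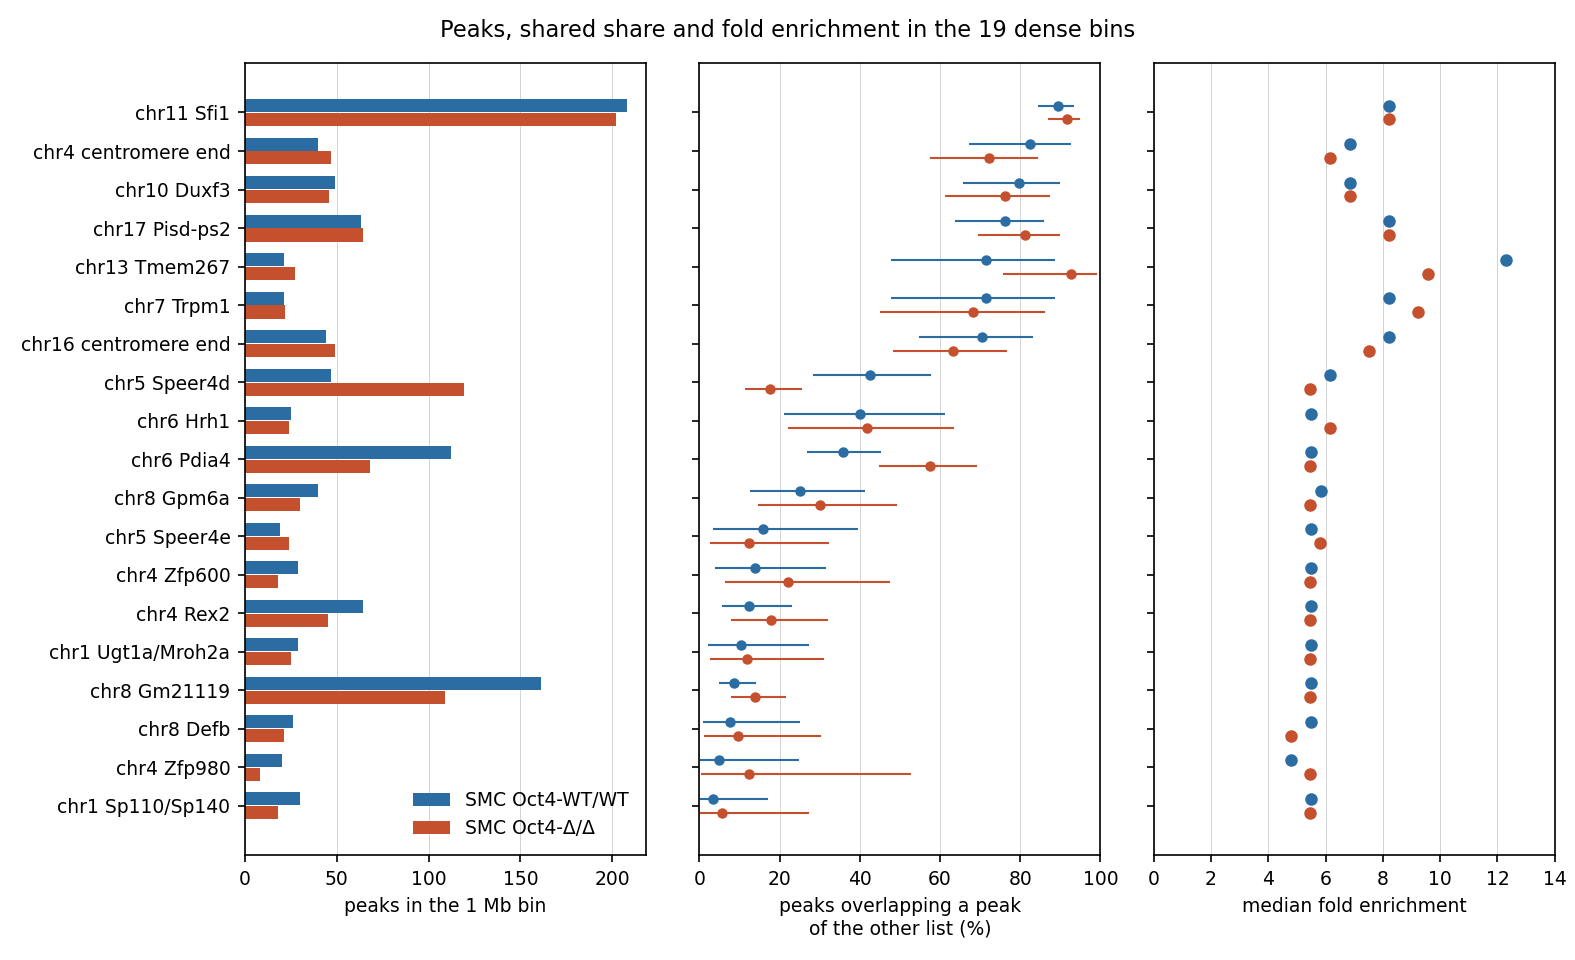
Each row is 1 of the 19 dense bins, named by chromosome and a gene there, with the number of peaks (left), the percent of peaks shared with the other genotype with exact 95% binomial intervals (middle) and the median fold enrichment of the peaks (right), for the WT and the KO sample. In 7 bins over 60% of the peaks of both lists were shared, between 63.3% and 92.6%, while in the other 12 the share was at most 57.4%, and the median fold enrichment of those 12 was at most 6.17.

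The bins fell into very different kinds in this respect, as the plot of shared shares by bin shows. In 7 bins the shared share was 70.5% to 89.4% in WT and 63.3% to 92.6% in KO. In the other 12 it was 3.33% to 42.6% in WT and 5.56% to 57.4% in KO. The 7 bins were those at the starts of chromosomes 4, 11, 16 and 17, the chromosome 7 bin, the Duxf3 bin and the Tmem267 bin. They had higher peaks, with medians of 6.86 to 12.3 in WT and 6.16 to 9.58 in KO against 4.80 to 6.17 and 4.79 to 6.16 in the 12. The 4 bins with the 21-base repeat were all among these 7. Of the 8 bins with a gene family, 7 were among the 12, and the exception was the start of chromosome 16 with 3 Zfp genes.

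Height went with sharing over all members. Fold enrichment, as the authors' peak caller wrote it, divides the fragments at the summit by those expected, after 1 is added to each. Its median in the dense bins was 6.17 in WT (quartiles 5.49 and 7.54) and 6.16 in KO (5.47 and 8.21), against 8.23 and 8.21 elsewhere, which corresponds to a median of 8 fragments at the summit against 11. Peaks with a fold enrichment under 6 were 44.8% of the WT and 41.0% of the KO peaks in the dense bins, and 6.80% and 4.35% elsewhere. Of these low peaks 19.1% were shared in WT (15.7 to 23.0) and 27.3% in KO (22.9 to 31.9), beside 16.6% (11.6 to 22.6) and 15.7% (11.1 to 21.4) elsewhere. At a fold of 6 to 8, 49.4% of the WT peaks in the dense bins were shared (44.0 to 54.8), below the 67.6% elsewhere (64.6 to 70.4), while KO peaks showed the opposite order, 50.8% (45.2 to 56.3) against 19% (17.3 to 20.9). From a fold of 8 upward the intervals of the WT shares overlapped, 89.8% (82.5 to 94.8) and 90.6% (88.1 to 92.8) at 8 to 10. The KO shares stayed apart, 82.6% (74.1 to 89.2) against 40.5% (37.6 to 43.5) at 8 to 10. At 10 to 15 they were 93.5% (86.5 to 97.6) against 78.7% (76.0 to 81.3). All 40 WT and 43 KO peaks of the dense bins at a fold of 15 or more were shared.

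**Figure D2:**
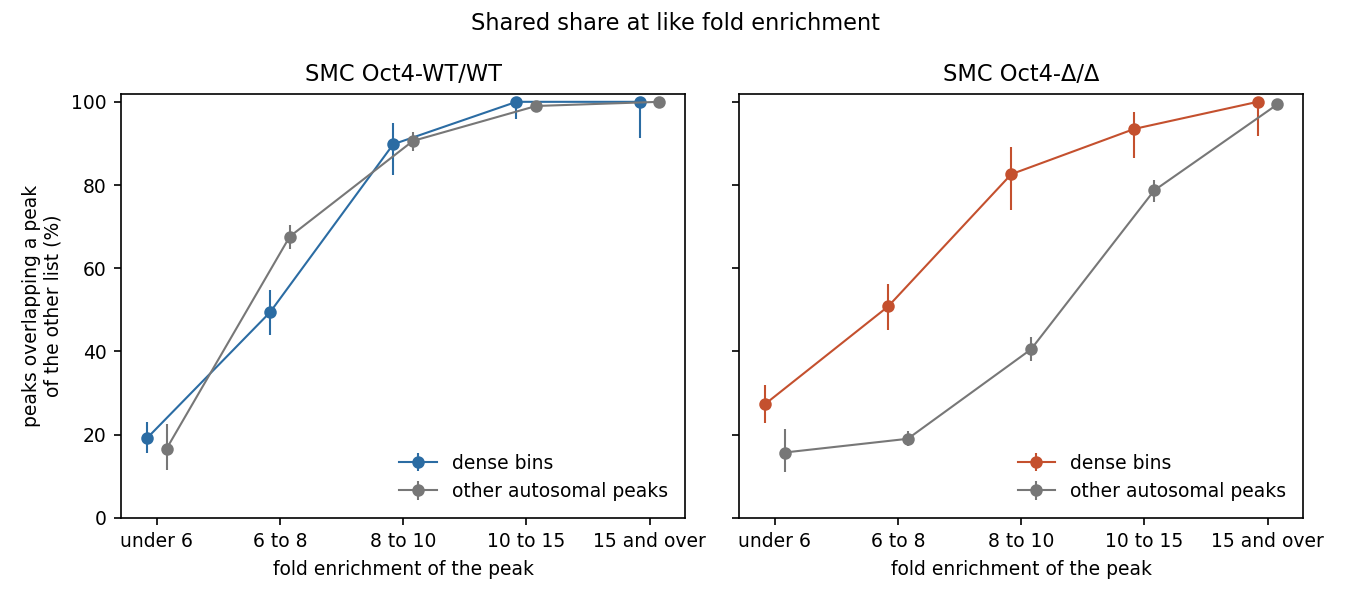
Percent of peaks shared with the other genotype by class of fold enrichment at the summit, for dense bins and for all other autosomal peaks, WT and KO in separate panels, with exact 95% binomial intervals. The WT intervals overlap under 6 and from 8 upward. In KO the dense bins lie above the other peaks in each class under 15. The KO shares were 27.3% against 15.7% under 6, 50.8% against 19% at 6 to 8, 82.6% against 40.5% at 8 to 10 and 93.5% against 78.7% at 10 to 15.

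Peaks with no overlapping counterpart lay at short distances from the other list, as the choice of bins with closely packed summits fixes in part. In the dense bins 291 of 565 unshared WT peaks (51.5%, 47.3 to 55.7) and 266 of 473 unshared KO peaks (56.2%, 51.6 to 60.8) had a summit of the other list within 1 kb. Elsewhere on the autosomes 9.61% of unshared WT and 2.91% of unshared KO peaks did. The median distance to the nearest summit of the other list was 939 bp in WT and 816 bp in KO, against 132 kb and 241 kb elsewhere. Counted in windows of 10 kb, 308 windows of the dense bins held a summit, of which 184 (59.7%) held both genotypes, 82 WT alone and 42 KO alone. Of 4978 other autosomal windows with a summit, 2135 (42.9%) held both. Copies of the same sequence crossed between the lists too. A link to a dense-bin peak of the other genotype was found for 143 unshared WT peaks (25.3%, 21.8 to 29.1) and 108 unshared KO peaks (22.8%, 19.1 to 26.9). Of all dense-bin peaks, shared or not, 35.2% in WT and 29.4% in KO had a link to a dense-bin peak of either list. Links were sought among dense-bin peaks only, so no share elsewhere stands beside these. Linked peaks had windows that did not overlap, and shared at least 50% of the 31-base words of the window with fewer distinct words. The part of read placement among copies in these differences was not tested.

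Overlapping peaks of both genotypes were compared in height. Over 483 overlapping pairs in the dense bins the KO pileup divided by the WT pileup had a median of 1.00 (quartiles 0.818 and 1.17), with KO higher in 198 pairs, WT higher in 214 and 71 equal. Over 2278 pairs elsewhere the median was 1.19 (1.00 and 1.41), with KO higher in 1569 and WT in 498. Across pairs the pileups had a Pearson correlation of 0.877 and a Spearman correlation of 0.697 in the dense bins, and of 0.933 and 0.776 elsewhere, as a description over sites that share their libraries and, in part, their sequence. Summits of a pair lay 15 bp apart in the median and 3 bp elsewhere, and the peaks of the dense bins were wider, with medians of 67 bp in WT and 63 bp in KO against 48 and 45 bp. GC content within 100 bp of the summit had a median of 46.3% in both lists, against 43.8% and 43.3%, and the soft-masked share was lower, 29.9% and 32.8% against 54.2% and 50.7%.

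By place, 7.16% of WT and 7.45% of KO peaks in the dense bins lay in exons, 39.0% and 40.7% in introns and 53.8% and 51.9% between genes. Exonic peaks were 4.75% and 4.66% elsewhere. Peaks within 1 kb of a protein-coding transcript start were 4.10% of WT (2.99 to 5.49) and 4.04% of KO peaks (2.89 to 5.48), beside 3.31% (2.68 to 4.04) and 2.53% (2.10 to 3.01).

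The bin with the most peaks was chr11:3000001-4000000, with 208 WT and 202 KO peaks, of which 89.4% (84.4 to 93.3) and 91.6% (86.9 to 95.0) were shared. Most lay in Sfi1 (chr11:3131850-3193463, minus strand), a gene for a centrin-binding protein of the spindle poles, which held 163 WT and 160 KO summits, 146 shared in each list, with a median fold of 7.54 in WT and 7.87 in KO and highest values of 15.1 and 16.4. The narrowest stretch that held 80% of the summits of the bin was 54.9 kb, and peaks covered 52.7% of that span, so that much of the gene lay under peaks rather than beside a few separate sites. The pseudogene Pisd-ps1 (chr11:3125904-3131004), derived from the phosphatidylserine decarboxylase gene Pisd, held 14 and 13 summits, 12 shared in each. Drg1 (chr11:3187360-3266415, minus strand), for a GTP-binding protein, held 9 and 8, all shared, with medians of 14.4 and 13.3. Of the peaks in this bin 72.2% had a copy in unplaced sequence of the assembly, against 95.8% in the Sp100 bin and at most 16.5% in any other dense bin. The highest peaks stood outside the gene, at the satellite window printed above, 86.9 kb from the start of Sfi1.

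At the start of chromosome 17 another Pisd pseudogene was marked. The bin chr17:3000001-4000000 held 63 WT and 64 KO peaks, of which 76.2% (63.8 to 86.0) and 81.2% (69.5 to 89.9) were shared. Pisd-ps2 (chr17:3076578-3084183, minus strand) held 11 and 12 summits, 8 and 11 shared, with a median fold of 7.54 and 7.52. The 48 WT and 48 KO peaks with the word of the 21-base repeat had medians of 9.26 and 8.21, and the highest peak was at chr17:3020518-3020638 with 26.7 in WT and 28.0 in KO. No protein-coding gene lay in the 70.5 kb that held 80% of the summits.

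In the other bins of the 21-base repeat few summits lay in genes. The bin at the start of chromosome 4 (chr4:3000001-4000000) held 40 WT and 47 KO peaks, with 82.5% (67.2 to 92.7) and 72.3% (57.4 to 84.4) shared, and the 32 kb that held 80% of them contained no protein-coding gene. Its peaks with the word had a median fold of 6.86 and 6.16 and reached 12.3 in both lists, so that the satellite peaks of the same bin, at 21.2 to 36.3, stood clear above them. In the chromosome 7 bin (chr7:64000001-65000000) 21 WT and 22 KO peaks were shared to 71.4% (47.8 to 88.7) and 68.2% (45.1 to 86.1) and 80% of them lay within 13.9 kb, with the highest WT peak 79.8 kb from Trpm1, a cation channel of retinal bipolar cells. Its highest KO peak, at 18.5, lay in an intron of the antisense gene Gm20457, and was shared. This bin is not at a chromosome start, and its nearest run of undetermined bases was 4143 kb away. The bin at the start of chromosome 16 (chr16:3000001-4000000) held 44 and 49 peaks, with 70.5% (54.8 to 83.2) and 63.3% (48.3 to 76.6) shared. Its 3 Zfp genes, Zfp263, Zfp174 and Zfp597, held 1 WT and 1 KO summit, both in Zfp263 at a fold of 18.5, and the olfactory receptor genes Olfr161 and Olfr15 held none. Over the 4 bins, 87 of 111 WT peaks with the word were shared (78.4%, 69.6 to 85.6) and 87 of 122 KO peaks (71.3%, 62.4 to 79.1), and peaks of the same bins without the word were shared to 70.2% (56.6 to 81.6) and 75% (62.1 to 85.3). The intervals with and without the word overlapped in both lists.

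The bin chr10:58000001-59000000 held the Duxf3 array. Duxf3 (chr10:58229979-58232675, minus strand) is the mouse Dux gene, a homeobox factor that activates the genes of the early cleavage embryo, and it is multicopy in the mouse. The bin held 49 WT and 46 KO peaks, with 79.6% (65.7 to 89.8) and 76.1% (61.2 to 87.4) shared. A stretch of 11.7 kb held 80% of them, and 50.1% of that span lay under a peak. Duxf3 itself held 9 and 9 summits, 7 shared in each list, with a median fold of 6.86 and 6.16. AW822073, a neighbouring predicted protein, held 6 and 6, with 5 and 4 shared, and the pseudogene Gm10807 held 4 and 3, all shared. The median peak occurred in 3 copies, all within the bin. The Duxf3 promoter is printed because 4 summits fell in it, 2 of each list and all shared. It is the RefSeq sequence of GRCm38.p6, 250 bases before to 50 after the start, 5′ to 3′ on the minus strand, with capitals over the 79 bases (26.3%) that lay under a peak of both lists.
Duxf3 promoter, chr10:58233040-58233339: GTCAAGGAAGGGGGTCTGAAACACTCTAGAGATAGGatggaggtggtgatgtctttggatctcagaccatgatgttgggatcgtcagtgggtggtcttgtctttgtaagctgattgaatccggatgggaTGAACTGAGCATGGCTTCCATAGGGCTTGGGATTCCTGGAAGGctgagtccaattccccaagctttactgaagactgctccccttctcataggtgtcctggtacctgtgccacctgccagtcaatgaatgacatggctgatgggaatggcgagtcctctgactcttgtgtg
The WT summits there had a fold of 6.17 and 7.54 and the KO summits 6.84 and 4.79.

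Tmem267, for a transmembrane protein, carried the most compact group. In chr13:119000001-120000000 there were 21 WT and 27 KO peaks, of which 71.4% (47.8 to 88.7) and 92.6% (75.7 to 99.1) were shared, and the gene (chr13:119488039-119611059) held 17 and 26 of them, 15 and 25 shared. A stretch of 7.43 kb held 80% of the summits of the bin, and 86.5% of it was under a peak. The median fold was 12.3 in WT and 9.58 in KO, and the highest was 38.4 and 36.9 at the intron window printed above, where the median 31-base word occurred 91 times in the assembly. Peaks with the word GAGGCAGGGGGA were shared in 14 of 15 cases in WT and 23 of 24 in KO.

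The zinc finger bins of chromosome 4 had lower shared shares and median folds than the 7 highly shared bins, as did the rest of the other 12. The bin chr8:19000001-20000000, for example, had 7.69% of WT and 9.52% of KO peaks shared, with median folds of 5.49 and 4.79. The zinc finger bins chr4:145000001-146000000, chr4:146000001-147000000 and chr4:147000001-148000000 held 113 WT and 71 KO peaks in all and lie next to each other. They contain 3, 6 and 9 Zfp genes, most of them of the KRAB zinc finger kind, a large family of DNA-binding repressors that mostly act on transposable elements. The shared share was 5.0% (0.127 to 24.9), 13.8% (3.89 to 31.7) and 12.5% (5.55 to 23.2) of WT peaks and 12.5% (0.316 to 52.7), 22.2% (6.41 to 47.6) and 17.8% (8.0 to 32.1) of KO peaks. Median fold values were 4.80, 5.49 and 5.49 in WT and 5.47 in each bin in KO. Zfp600 (chr4:146156824-146198755) held 11 WT and 8 KO summits, 2 shared in each list. Zfp980 (chr4:145670685-145704441) held 5 and 5, with 1 shared in each, and Rex2 (chr4:147021850-147060794) held 8 and 3, with 1 shared in each. The long non-coding transcripts held most of the summits because they run through the cluster: C230088H06Rik held 49 and 36, Gm26624 39 and 29 and Gm26573 28 and 18, and these bodies overlap each other and the zinc finger genes, as the antisense gene Gm13165 overlaps Zfp600 with 7 and 4. Copies of the same sequence in another dense bin were found for 85.7%, 89.4% and 39.4% of the peaks. The 147 Mb bin held 1 strong KO peak, at 13 between genes 13.9 kb from Zfp982, which was shared. The highest WT peak of that bin was 6.86.

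The Speer bins of chromosome 5 held the largest surplus of KO peaks. Speer genes encode glutamate-rich proteins of spermatogenic cells. The 3 coding Speer genes of the dense bins held only 2 WT and 4 KO summits, and neither bin held a gene family by the rule above. The bin chr5:15000001-16000000 held 47 WT and 119 KO peaks, 80% of them over 637 kb, of which 42.6% (28.3 to 57.8) and 17.6% (11.3 to 25.7) were shared. The antisense gene Gm21847 (chr5:15516489-15656679) held 22 WT and 60 KO summits, 11 shared in each, and the overlapping Gm30613 held 8 and 30, 6 shared in each. Speer4cos held 5 and 8, and Speer4d 1 and 2. No peak was high, with maxima of 8.23 in WT and 8.21 in KO and medians of 6.17 and 5.47. Of its 27 windows of 10 kb with a summit, 18 held both lists, 9 held KO alone and 0 held WT alone. The neighbouring bin chr5:14000001-15000000 held 19 WT and 24 KO peaks, 15.8% (3.38 to 39.6) and 12.5% (2.66 to 32.4) shared, around Gm10354 and Speer4e, which held 1 and 2 summits. Of its peaks 95.3% had a copy in another dense bin.

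The defensin region of chromosome 8 is named for genes that held no peak. The bin chr8:19000001-20000000 contains 12 Defb genes for beta-defensins, antimicrobial peptides of epithelia, and no summit of its 26 WT and 21 KO peaks lay in any of them. The highest peak stood 7.51 kb from the start of Defb38, with 12.3 in WT and 17.8 in KO, and was single-copy and shared. In all, 2 WT peaks (7.69%, 0.946 to 25.1) and 2 KO peaks (9.52%, 1.17 to 30.4) of the bin were shared. The next bin, chr8:20000001-21000000, held 161 WT and 109 KO peaks, with 8.70% (4.84 to 14.2) and 13.8% (7.91 to 21.7) shared. No peak of it was single-copy, and 73.1% of its 31-base words were repeated inside the bin, the highest share among the dense bins. The long non-coding Gm26804 (chr8:20292477-20420781) held 50 and 33 summits, the overlapping pseudogene 2610005L07Rik 15 and 5, and the predicted protein gene Gm21119 (chr8:20614919-20640703) 9 and 1. A group of 57 peaks, 30 WT and 27 KO, was linked by copies of 1 sequence. Peaks with the 51-base word were shared in 7 of 31 cases in WT and 8 of 29 in KO.

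On chromosome 1 a single strong site stood apart from many weak ones in both bins. The bin chr1:85000001-86000000 holds Sp110, Sp140 and Sp100, genes of nuclear body proteins induced by interferon, and 30 WT and 18 KO peaks, of which 1 in each list was shared (3.33%, 0.0844 to 17.2, and 5.56%, 0.141 to 27.3). That shared peak lay in an intron of Sp100 (chr1:85649988-85709998), was single-copy and had a fold of 8.91 in WT and 17.1 in KO. The predicted gene C130026I21Rik held 12 and 9 summits and the pseudogene Gm2619 6 and 5, none shared, and Sp140 held 5 and 4, none shared. Copies in unplaced sequence were found for 95.8% of the peaks of this bin. The bin chr1:88000001-89000000 holds the Ugt1a family, 9 overlapping genes for UDP-glucuronosyltransferases that conjugate bilirubin and drugs, and these together held 2 WT and 3 KO summits. Most of the 29 WT and 25 KO peaks lay within 76.5 kb (80% of the summits), in Mroh2a with 11 and 7, in Trpm8, the cold-sensing channel, with 7 and 4, and in Hjurp, the chaperone that loads centromeric histone, with 1 and 2. Its peaks were single-copy in the assembly in 96.3% of cases and shared to 10.3% (2.19 to 27.4) and 12% (2.55 to 31.2). The number of copies in the animals was not tested. The nearest run of undetermined bases was 2553 kb away. The highest peak was again shared, 134 kb from Arl4c, with 11 in WT and 16.4 in KO.

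In a further 3 bins most peaks stood in tandem arrays outside protein-coding genes. The bin chr6:47000001-48000000 held 112 WT and 68 KO peaks, with 35.7% (26.9 to 45.3) and 57.4% (44.8 to 69.3) shared. A stretch of 107 kb with no protein-coding gene held 80% of them, the highest WT peak 63 kb from Pdia4, a disulfide isomerase of the endoplasmic reticulum, and the median peak occurred in 17 copies, all in the bin. The commonest spacing between neighbouring copies of a 31-base word was 4321 bp, and 70.4% of the spacings lay within 5% of it. The highest KO peak, at 10.3, lay outside the array in an intron of Cul1, a scaffold of ubiquitin ligases, and was not shared. The 5 Zfp genes of the bin held no summit. The bin chr6:114000001-115000000 held 25 and 24 peaks, with 40.0% (21.1 to 61.3) and 41.7% (22.1 to 63.4) shared, on units spaced by 2424 bp beyond Hrh1, the histamine H1 receptor gene, with a median of 42 copies. Hrh1 held 1 KO summit (6.16) and the autophagy gene Atg7 held 1 WT summit (8.91). The bin chr8:55000001-56000000 held 40 and 30 peaks, with 25% (12.7 to 41.2) and 30.0% (14.7 to 49.4) shared, on units spaced by 3298 bp over a stretch of 257 kb, with 15 copies at the median and Gpm6a, a neuronal membrane glycoprotein gene, as the nearest transcript start.

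**Figure D3:**
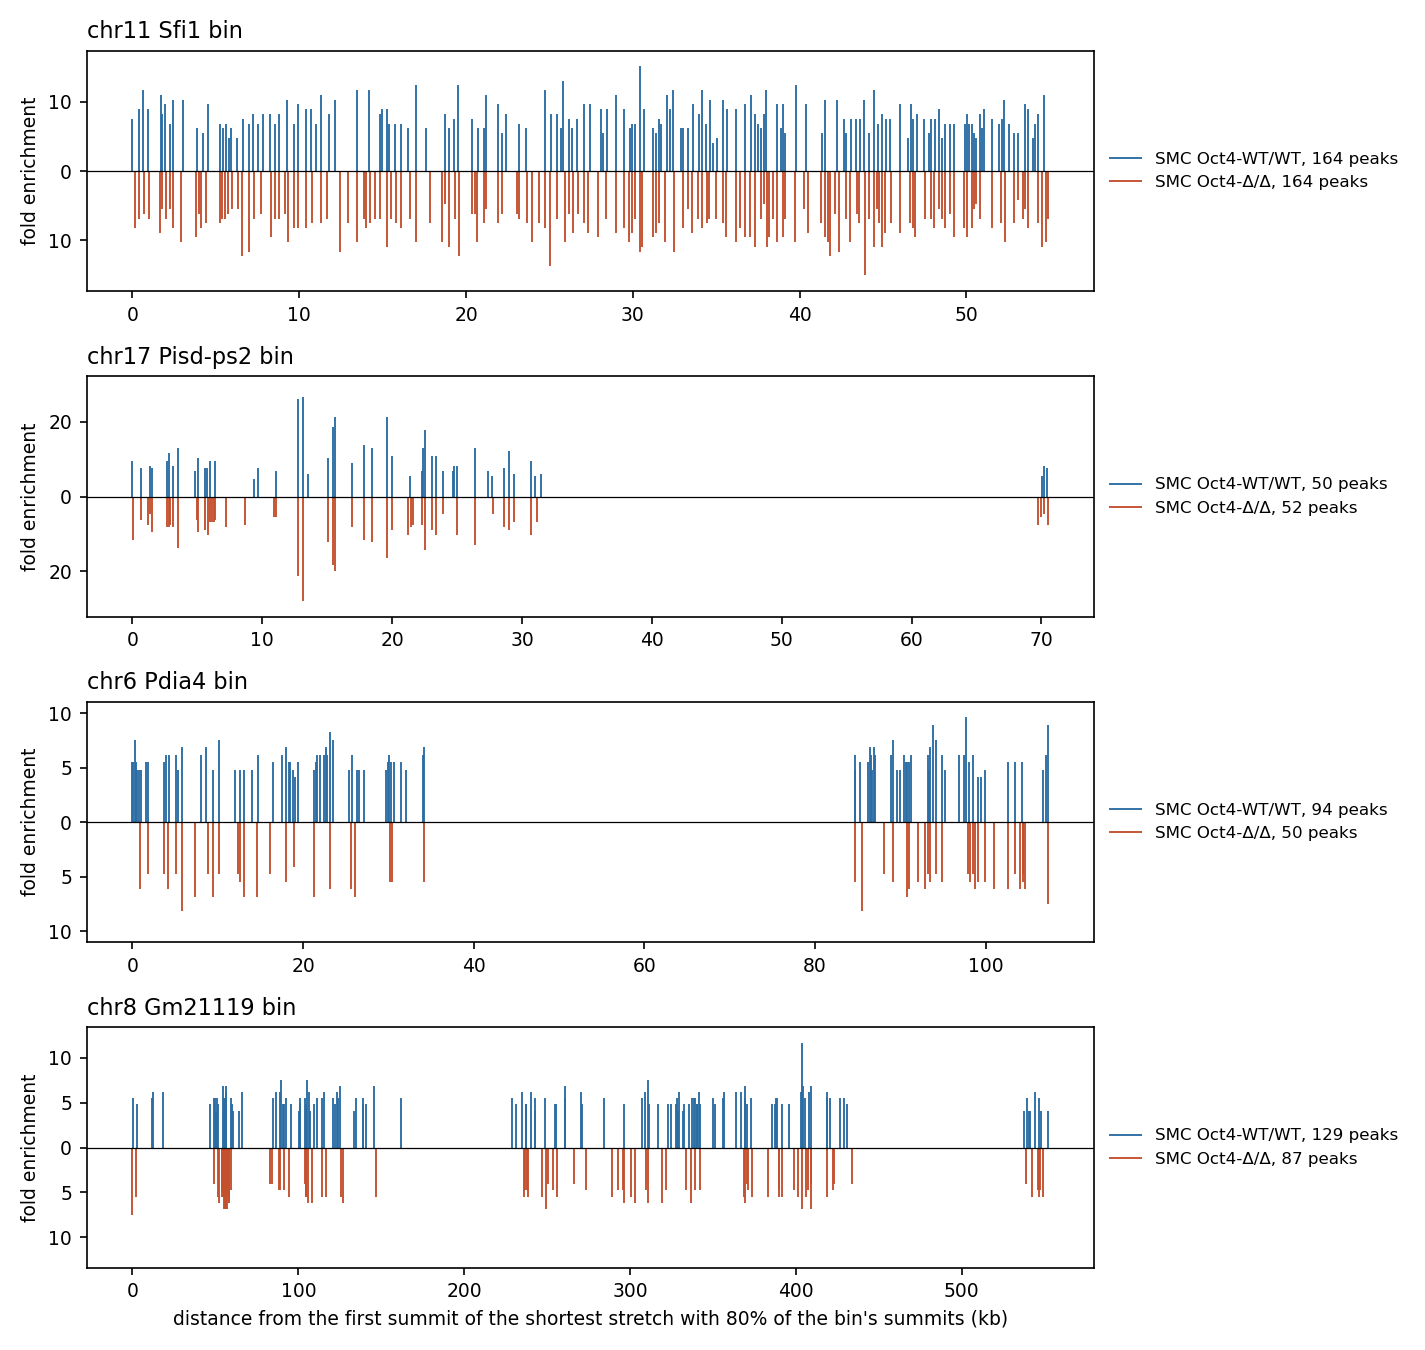
Peaks along the narrowest stretch that held 80% of the summits in 4 dense bins, with the distance from the start of that span in kb on the horizontal axis and fold enrichment on the vertical axis, WT upward and KO downward, 1 line per peak. The Sfi1 span is filled in both directions, and over their whole bins 89.4% of WT peaks were shared for Sfi1, 76.2% for the start of chromosome 17 (named for Pisd-ps2), 35.7% for the array near Pdia4 and 8.70% for the span with Gm21119.

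The maps of 4 bins show both kinds side by side. The Sfi1 span held 164 WT and 164 KO peaks, and peaks covered 52.7% of it. The span at the start of chromosome 17 held 50 and 52 peaks, mostly outside Pisd-ps2, and peaks covered 7.90% of it. The array near Pdia4 held 94 WT and 50 KO peaks, with 9 of the 11 windows of 10 kb in its bin that had a summit holding both lists, and the span with Gm21119 held 129 and 87. The highest WT peaks of these last bins were 9.60 and 11.7, and the lowest fold in the lists was 4.11 in WT and 4.10 in KO.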

How the data were processed

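The material was 3 deposited peak lists of Oct4 ChIP-seq in aortic segments, from 2 samples (1 of each genotype). The other 20 samples of the series were not analysed here. Reads had been aligned by the authors with Bowtie (build GRCm38.p6) and cleared of duplicates in SAMtools, and MACS2 peaks were kept at q under 0.05. The control of each call is not given in the sources used here. In the deposited lists stand a score (the -log10 q times 10, without decimals), a ratio called fold enrichment (1 is added to the observed and to the expected pileup), the -log10 p and -log10 q of the summit as the authors' MACS2 wrote them, and the summit offset in bp. The list that the authors named WT over KO equals the WT list in 5455 of 5455 entries and was not used further. Each list fits 1 expected pileup, 0.458 in WT and 0.462 in KO, and no read totals were at hand, so library depth is unknown beyond this.

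Summits were counted in bins of 1 Mb. Genes, exons and transcript starts came from GENCODE M21, sequence and undetermined runs from GRCm38.p6, and promoters from the RefSeq table. Copies are occurrences in the assembly of the 31-base words within 100 bp of a summit, as the median over the words, on either strand. The named genes are, by rule, the families with the most coding genes in each bin and the 20 genes with the most summits. The rule adds the gene or nearest coding start at the highest peaks of the bins with the most summits (70 or more). Genes outside that rule (Rex2, Trpm8, Hjurp, Zfp980, Zfp263, Speer4d, Speer4e, Sp140, Sp100, Defb38, Gm10807, Gm10354, Gm20457, Hrh1, Trpm1, Arl4c and Atg7) were named after their values had been seen. The members, families and comparisons were chosen with earlier results of these data known, and the words and tandem repeats after seeing the sequences. Counts, intervals, copies and repeats were computed with Python 3.11.15, numpy 2.4.6, pandas 2.3.3, scipy 1.17.1 and numba 0.67.0, drawn with matplotlib 3.10.9, and tested on simulated data. No test between genotypes was run.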

Additional observations from a re-analysis of the deposited data

How the results depend on the processing

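Of 59 values recomputed under 12 other settings, 33 stayed close to those reported (a count within 1.5 times, a share within its 95% interval). Bins of 500 kb with 10 or more summits gave 34 bins, 20 of them with more WT summits, and 49.6% of WT peaks shared. Bins that start 500 kb further on left 5 with a gene family. A minimum of 30 summits gave 11 bins, 7 with more WT summits and 4 with a family, and 50.1% of WT peaks shared. Asking for 20 summits in both lists gave 49.9% and 5 bins with a family. Peaks with a fold of 6 or more gave 12 bins with 535 WT and 518 KO peaks, of which 60.9% and 64.1% were shared, with 7 bins of more WT summits and 3 with a family. Under an overlap of at least 50% of both peaks 31.4% of WT and 34.1% of KO peaks were shared, and with the other summit within 50 bp 34.4% and 37.4%. A family of 5 or more genes was present in 5 bins. Single-copy peaks were shared to 56.1% and 58.1%, with a median fold of 6.86 in WT and 6.84 in KO. The cause of these shifts was not tested beyond what each setting removes.

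No paired analysis was possible because each genotype has 1 ChIP sample. The median peak of the dense bins rests on 8 fragments, so single weak peaks are close to the limit of detection, and a peak present in 1 list is not shown to be absent from the other genotype. Placement of reads among copies was made by the authors' aligner and cannot be told apart from differences in binding with the files used here.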
